A study of Oryza sativa Japonica Group with 8 samples.

Results

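Amino acid and peptide transporters are the membrane proteins that carry organic nitrogen into and out of plant cells. The genes were taken from the deposited annotation, as protein-coding genes whose description names a transporter or permease of amino acids, peptides, oligopeptides, proline, or lysine and histidine. In all, 111 genes matched, of which 102 were listed in both expression tables. Of these, 63 had a mean of at least 1 FPKM (fragments counted per kilobase of transcript and scaled to library size) in each table, among 17815 protein-coding genes that passed the same filter. By their descriptions, 39 of the 63 belong to amino acid carriers and 24 to peptide carriers.

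The leaves came from soil-grown plants of the japonica rice variety Ilmi, raised with 3 plants to a pot. One group was well watered, and in the other 3 groups drought stress had lasted 1, 2 or 3 days. Water was stopped 5 weeks after the plants went into soil, with soil moisture first set to about 75%. Strand-specific libraries of both total RNA and mRNA were made for every group, which gave 8 libraries and 1 library per group and kind. No group has a replicate, and the labels do not say whether the kinds shared plants or RNA. Leaf RNA holds many cell types, so fewer cells of a type and less RNA per cell cannot be told apart.

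Plants move amino acids through several protein families. Amino acid permeases import amino acids together with protons. Their relatives with a transmembrane transporter domain include auxin transporter-like proteins, so the domain alone does not state what is carried. Cationic amino acid transporters favour basic amino acids, and amino acid/polyamine transporters also take polyamines. Proton-dependent peptide transporters (PTR, POT) carry short peptides, and plant relatives of this family carry nitrate and hormones as well. Oligopeptide transporters of the OPT family carry longer peptides, glutathione or chelated metals. In leaves that are being dismantled, protein breakdown releases amino acids and peptides, which are loaded into the phloem for export.

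A gene was called higher or lower on a drought day when FPKM + 1 differed at least 2-fold from the watered library in both library kinds, which is a log2 ratio of at least 1 or at most -1. This is a rule of size and carries no p-value. Fold values and log2 ratios below are on this scale, which understates differences of genes with low FPKM. On day 1, 10 of the 63 transporters were called higher (15.9%), against 6.98% of all protein-coding genes tested, and 3 were called lower (4.76%), against 2.48%. On day 2, 19 were higher (30.2%, against 14.6%) and 10 were lower (15.9%, against 11.1%). On day 3, 20 were higher (31.7%, against 18.2%) and 17 were lower (27.0%, against 26.0%). The share called higher was thus above that of all genes on each day, while the share called lower on day 3 was near it. That nearness depends on the setting, since the day 3 shares called lower were 25.4% against 19.3% with median-ratio scaling, 20.6% against 13.6% with a pseudocount of 5, and 22.5% against 18.3% without a filter. The day 1 counts were 7 higher and 5 lower under median-ratio scaling and also under the deposited quantile-normalized values, and 8 and 4 with the 10 most abundant genes left out of the scaling. With a pseudocount of 5, which weighs low levels less, several calls described below were lost, among them those of Os02g0101000, Os02g0102200 and Os04g0435100 on day 1 and of Os01g0825800, Os01g0878700, Os05g0410900 and Os06g0125500 on day 2.

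**Figure D1:**
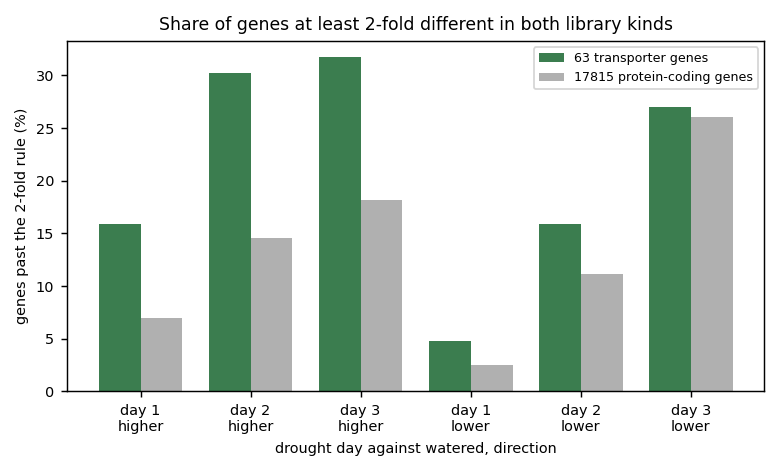
Share of genes past the 2-fold rule on each drought day, for the 63 transporter genes (green) and the 17815 protein-coding genes tested (grey). The green bars of higher genes stand at 15.9%, 30.2% and 31.7%, against 6.98%, 14.6% and 18.2% in grey, and the bars of lower genes on day 3 are close, at 27.0% and 26.0%.

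The median ratio of the transporters was small on each day, although most members differed from watered leaves on some day. Of the 63, 42 were called on at least 1 drought day and 21 were not called on any. Calls on at least 1 day were not counted over all genes tested, so these counts describe the members only. Since 20 were called higher and 17 lower on day 3, a small median does not mean small differences of single members. The median log2 ratio of the 63 genes was 0.07 in both kinds on day 1. For day 2 it was 0.39 (total RNA) and 0.24 (mRNA), then 0.23 and 0.03 a day later. Over all genes tested the day 1 median was 0.23 and 0.17, the day 2 median 0.12 and 0.06, and the day 3 median -0.24 and -0.39. Median-ratio scaling moved the day 3 medians of all genes to 0.07 and 0.10 and those of the transporters to 0.51 and 0.58, so ratios are best read against the median of all genes. The sign of the transporter median on days 1 and 3 turned under some settings. Around these medians lay genes far above and far below watered leaves, with day 3 ratios from -5.06 to 7.89 in total RNA and from -5.31 to 7.998 in mRNA. On day 3 the kinds had the same sign for 59 of the 63 genes, and the median size of the difference between their ratios was 0.19.

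**Figure D2:**
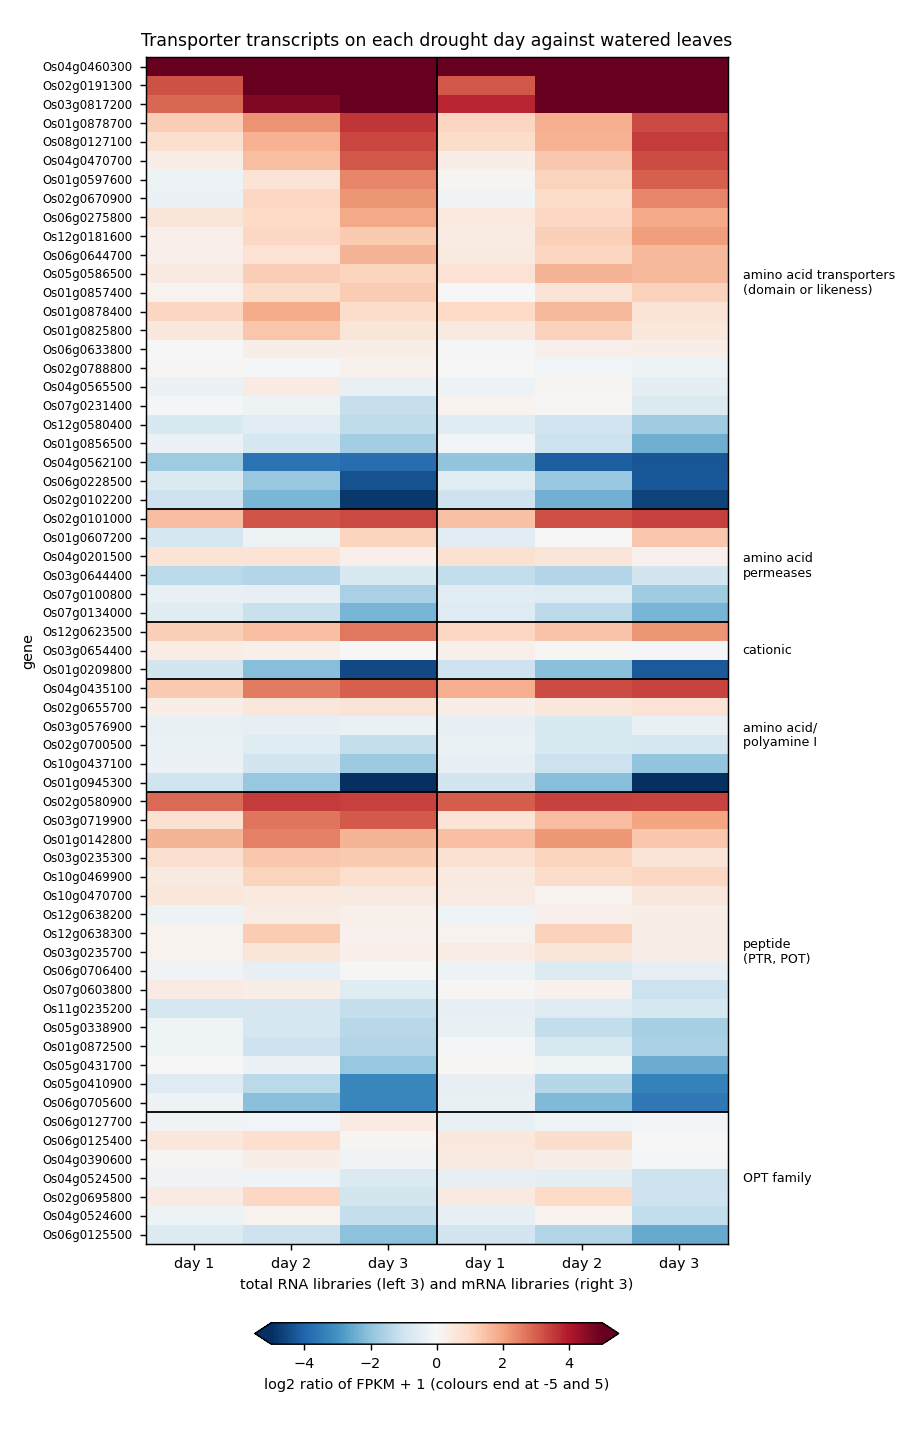
Log2 ratio of FPKM + 1 to the watered library for each of the 63 genes (rows, by class and then by day 3 ratio) on each drought day, in total RNA (left 3 columns) and mRNA (right 3 columns). Red is higher and blue lower than watered, and colours end at -5 and 5. The top class holds both Os04g0460300, at 7.89 and 7.998 on day 3, and Os02g0102200, at -4.84 and -4.63.

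Carriers described by a transmembrane amino acid transporter domain, or by likeness to an amino acid transporter, form the largest class with 24 genes. Over days 1, 2 and 3, the members called higher numbered 5, 11 and 13, and those called lower 2, 3 and 5. On day 3 this is 54.2% higher and 20.8% lower, against 18.2% and 26.0% of all genes. The class median log2 ratio on day 3 was 1.19 in total RNA and 1.38 in mRNA. These descriptions do not say which amino acids a protein carries. The class takes what the wording of the other classes left and mixes families, among them an auxin transporter-like protein and neutral amino acid carriers. Os02g0101000 has the same domain description and counts as a permease only by the wording of another transcript. Contrasts between this class and the permeases thus depend in part on wording.

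The genes furthest above watered leaves were in this class. Os04g0460300 (chromosome 4, 22977821 to 22980329) stood at 0.580, 66.8, 321 and 373 FPKM in the total RNA libraries of watered leaves and days 1, 2 and 3. The mRNA libraries gave 0.453, 66.7, 288 and 370.5 FPKM in the same order. Every drought library was thus far above both watered ones, and on the log2 scale most of the difference was there after 1 day, at 5.42 of 7.89 in total RNA. Its day 3 level was 237-fold that of watered leaves in total RNA and 256-fold in mRNA.

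Os02g0191300 (chromosome 2, 5058825 to 5061929) was higher with each further day. It went from 2.79 FPKM when watered to 33.4, 139 and 446 FPKM in total RNA, and from 2.95 to 33.1, 129 and 409 FPKM in mRNA. Its day 3 level was 118-fold and 104-fold that of watered leaves. Os03g0817200 (chromosome 3, 34271361 to 34273067) was under 1 FPKM in both watered libraries, at 0.419 and 0.363 FPKM. From day 1 to day 3 total RNA gave 9.27, 34.1 and 55.4 FPKM and mRNA 18.3, 59.8 and 91.5 FPKM. The kinds differed most for this gene on day 1, with log2 ratios of 2.86 and 3.82, and both were far past the rule.

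A further set was highest on day 3. Os08g0127100 (chromosome 8, 1561754 to 1566957) stood at 16.9, 30.0, 58.9 and 178 FPKM in total RNA and, in mRNA, at 38.6, 73.2, 132 and 448 FPKM, which made it the second most abundant transporter of the day 3 mRNA library. Os04g0470700 (chromosome 4, 23512858 to 23522971) had the same late course, with 7.86, 10.03, 24.2 and 76.0 FPKM in total RNA and 16.2, 20.4, 43.1 and 165 FPKM in mRNA. Both genes were at least 2-fold higher on day 3 than on day 2 in both kinds. Os01g0878700 went from 1.88 to 33.2 FPKM in total RNA and from 1.06 to 19.3 FPKM in mRNA between watered leaves and day 3. Its day 1 call (log2 1.21 and 1.06) did not hold with a pseudocount of 5, under median-ratio scaling or under the quantile-normalized values. Os01g0597600 was near its watered level on day 1 (3.50 and 2.75 FPKM in total RNA, 1.12 and 1.36 in mRNA) and reached 23.2 and 16.03 FPKM on day 3.

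Os06g0275800 was already abundant, at 46.6 FPKM when watered in total RNA and 50.3 FPKM in mRNA, and it reached 177 and 188 FPKM on day 3. Its day 2 ratios of 1.01 and 1.03 lie at the edge of the rule, and that call was lost under each of the 3 other scalings and with a pseudocount of 5. Members outside the naming rule are given here and in later paragraphs so that the classes are complete, and they were chosen after their values were seen. Of these, Os12g0181600 reached 22.1 and 72.5 FPKM on day 3 from 8.40 and 16.4, Os06g0644700 reached 11.9 and 13.6 from 2.94 and 3.81, and Os01g0857400 reached 22.7 and 33.3 from 8.84 and 14.3 (total RNA, mRNA). Os05g0586500, which lies just inside the filter on low values, went from 0.180 and 0.412 FPKM in watered leaves to 1.56 and 3.38 FPKM on day 3, and its calls on days 2 and 3 were lost with a pseudocount of 5.

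Some amino acid carriers were highest on day 2. Os01g0878400 stood at 14.9, 33.0, 56.5 and 28.1 FPKM in total RNA and, in mRNA, at 14.97, 31.2, 48.1 and 24.6 FPKM. It was called higher on days 1 and 2 and not on day 3, and its day 1 ratios of 1.09 and 1.01 lie at the edge of the rule. Os01g0825800, described in part as an amino acid-polyamine transporter, had the same shape at a lower level, with 4.58, 7.06, 13.7 and 7.45 FPKM in total RNA and 6.77, 9.48, 16.5 and 10.2 FPKM in mRNA.

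The same class held genes that nearly disappeared. Os02g0102200 (chromosome 2, 119391 to 121684) stood at 78.2, 37.6, 15.04 and 1.77 FPKM in total RNA and, in mRNA, at 85.2, 40.9, 15.1 and 2.47 FPKM. Os06g0228500 (chromosome 6, 6678245 to 6680823) stood at 80.9, 49.3, 21.0 and 3.04 FPKM and at 73.4, 49.9, 19.1 and 2.97 FPKM. Both were among the 5 most abundant transporters in watered total RNA and lower at every later step. Os04g0562100 (chromosome 4, 28137735 to 28139899) was the earliest to be low, at 15.6, 3.80, 0.282 and 0.189 FPKM in total RNA and 22.6, 4.94, 0.355 and 0.225 FPKM in mRNA. Its log2 ratio was already -1.79 and -1.99 on day 1.

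Smaller differences of the lower kind were seen for Os01g0856500 and Os12g0580400. The first, described in part as auxin transporter-like protein 1 and thus related to carriers of the hormone auxin, was at -1.74 and -2.43 (log2) on day 3. The second, described as like a neutral amino acid transport protein, was at -1.29 and -1.77. Os07g0231400, described as like an aromatic and neutral amino acid transporter, was at -1.16 and -0.71 and did not reach the rule in mRNA. Os04g0565500 and Os02g0788800 were not called on any day.

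The most abundant transporter of all 8 libraries was Os06g0633800 (chromosome 6, 25690379 to 25693792), and it was called in no comparison. It stood at 356, 348, 434 and 451 FPKM in total RNA and, in mRNA, at 425, 399, 512 and 543 FPKM. Its day 3 log2 ratios were 0.34 and 0.35. It made up 25.5% of the summed FPKM of the 63 genes in the watered total RNA library and 13.5% on day 3.

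Amino acid permeases, which import a broad range of amino acids, went both ways. Of 6 genes, those called higher numbered 1, 1 and 2 over the drought days, and those called lower 1, 2 and 2. The day 3 shares were 33.3% higher and 33.3% lower, against 18.2% and 26.0% of all genes. In 6 genes a single gene is 16.7%, so these shares are not read as different from those of all genes. Os02g0101000 (chromosome 2, 50308 to 55886) stood at 3.15, 11.3, 35.3 and 39.8 FPKM in total RNA and, in mRNA, at 5.04, 15.5, 55.1 and 63.0 FPKM. It was 9.82-fold and 10.6-fold above watered leaves on day 3. Os07g0134000 (chromosome 7, 1788844 to 1794564), described as like amino acid permease 6, went the opposite way, with 67.8, 44.3, 30.9 and 12.7 FPKM in total RNA and 132, 85.3, 53.4 and 25.4 FPKM in mRNA. It was the second most abundant transporter of the watered mRNA library.

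Os03g0644400 was lowest in the middle of the course. It stood at 27.9, 10.4, 9.44 and 16.1 FPKM in total RNA and, in mRNA, at 46.0, 18.9, 15.8 and 24.1 FPKM, so that it was called lower on days 1 and 2 and not on day 3. Os01g0607200 was also lower on day 1 than when watered (3.55 against 7.11 FPKM in total RNA, 6.36 against 9.88 in mRNA, short of the rule) and was called higher on day 3, at 16.7 and 26.5 FPKM. Os07g0100800 was called lower on day 3 at -1.62 and -1.76, and Os04g0201500 was not called on any day.

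Cationic amino acid transporters, which favour basic amino acids such as lysine and arginine, showed 3 different courses in 3 genes. Os12g0623500 (chromosome 12, 26621211 to 26626093) stood at 52.0, 119, 148 and 329 FPKM in total RNA and, in mRNA, at 88.6, 180.4, 238 and 409 FPKM. Its day 1 call, at 1.18 and 1.02, was lost under each of the 3 other scalings and with a pseudocount of 5, while its day 2 and day 3 calls were kept under all of them. Os01g0209800 (chromosome 1, 5983626 to 5985875) stood at 30.1, 15.5, 6.14 and 0.352 FPKM in total RNA and, in mRNA, at 23.0, 10.7, 4.57 and 0.288 FPKM. Os03g0654400 stayed between 14.1 and 23.7 FPKM in all 8 libraries.

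In the amino acid/polyamine transporter I family of 6 genes, the day 3 shares were 16.7% higher and 33.3% lower. For so few genes these are near the 18.2% and 26.0% of all genes. The same 1 of the 6 genes was called higher on each drought day. This was Os04g0435100 (chromosome 4, 21637785 to 21642587), at 0.252, 2.09, 6.48 and 8.94 FPKM in total RNA and, in mRNA, at 1.06, 6.16, 18.7 and 20.3 FPKM. Os01g0945300 (chromosome 1, 41554884 to 41559339) had the lowest day 3 ratio of all 63 genes. It stood at 76.7, 38.1, 20.0 and 1.33 FPKM in total RNA and, in mRNA, at 100.4, 50.8, 21.9 and 1.55 FPKM. On day 1 it was just short of the rule at -0.99 and -0.97, and each of the 3 other scalings put it past. Os10g0437100 was called lower on day 3 at -1.84 and -1.99, and Os02g0700500 reached the rule in total RNA (-1.17) and not in mRNA (-0.86). Os03g0576900, the most abundant of this family on day 3 in total RNA, stayed between 40.0 and 53.5 FPKM there and between 28.3 and 48.2 FPKM in mRNA, and Os02g0655700 was at 0.63 and 0.70 (log2) on day 3.

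**Figure D3:**
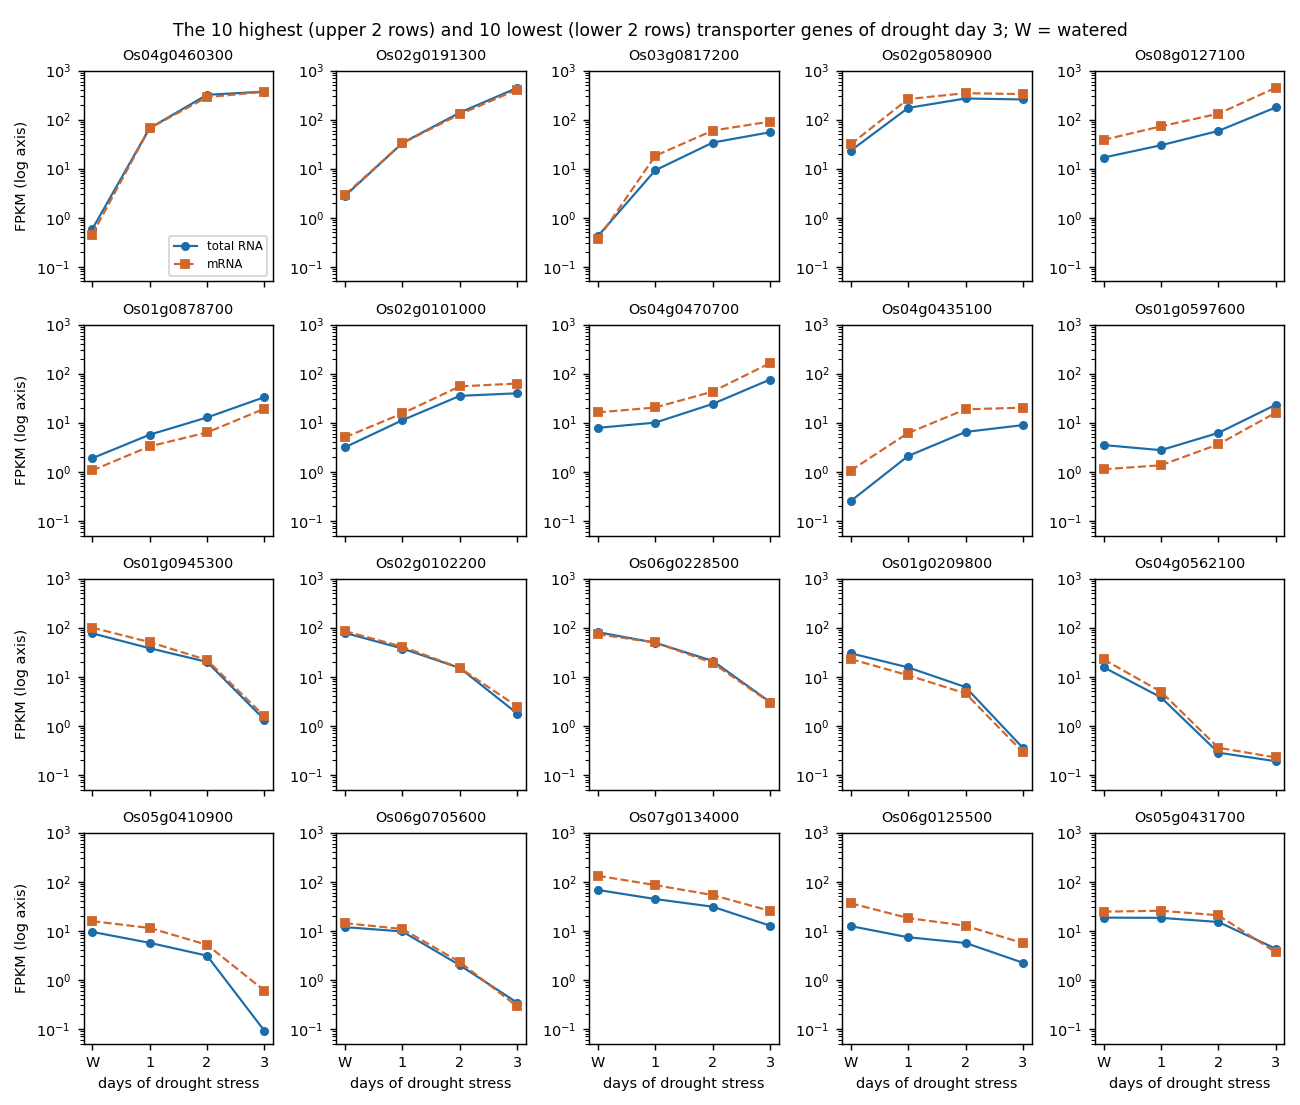
FPKM (log axis) in watered leaves (W) and after 1, 2 and 3 days of drought stress for the 10 highest (upper 2 rows) and 10 lowest (lower 2 rows) called transporter genes of day 3, ranked by the smaller ratio of the kinds, in total RNA (blue, solid) and mRNA (orange, dashed). Each point is 1 library. Os04g0460300 jumps to 66.8 and 66.7 FPKM on day 1, while Os01g0945300 has its steepest step between day 2 (20.0 and 21.9 FPKM) and day 3 (1.33 and 1.55 FPKM).

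Proton-dependent peptide transporters numbered 17, and their summed level was highest on day 2. The count called higher was 2, 5 and 3 over the drought days, and the count called lower 0, 2 and 5. On day 1, 11.8% were higher and 0% lower, against 6.98% and 2.48% of all genes. On day 2, 29.4% were higher, above the 14.6% of all genes, and 11.8% lower, near the 11.1%. The day 3 shares, 17.6% higher and 29.4% lower, are near the 18.2% and 26.0% of all genes. Os02g0580900 (chromosome 2, 22369930 to 22374416), described in part as like peptide transporter PTR2, stood at 23.3, 174, 270.3 and 258 FPKM in total RNA and, in mRNA, at 31.4, 263, 347 and 332 FPKM. After 1 day it was the second most abundant transporter in both kinds. Its PTR2 transcript held 4.83% to 9.25% of the gene's FPKM over the 8 libraries. The rest lay in a transcript described as a TGF-beta receptor extracellular region family protein. The same words also describe transcripts of the PTR2-like members Os07g0603800 and Os10g0469900 and of the nitrate transporter Os10g0554200. They thus do not tell whether such a transcript encodes a carrier. Os01g0142800 (chromosome 1, 2294904 to 2298329) was highest on day 2, with 31.8, 106, 189 and 105 FPKM in total RNA and 36.9, 107, 168 and 95.7 FPKM in mRNA. It was called higher on all 3 days.

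Os03g0719900 was called higher on days 2 and 3, but its kinds differed by more than those of any other member on both days. It stood at 22.9, 39.1, 152 and 201 FPKM in total RNA and, in mRNA, at 25.7, 42.4, 76.9 and 105 FPKM. Os12g0638300 was highest on day 2, at 25.8 and 50.9 FPKM, against 10.2 and 22.3 FPKM when watered and 12.1 and 28.4 FPKM on day 3, and this call did not hold under the quantile-normalized values. Os03g0235300 was called higher on day 2 alone, at 1.36 and 1.12. Os10g0469900 reached the rule in total RNA on day 2 (1.11 and 0.90) and in mRNA on day 3 (0.84 and 1.03), and so was not called.

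Other peptide transporters were low by day 3. Os05g0410900 stood at 9.47, 5.66, 3.10 and 0.0908 FPKM in total RNA and, in mRNA, at 15.7, 11.4, 5.16 and 0.601 FPKM. Os06g0705600 stood at 11.8, 9.65, 1.98 and 0.340 FPKM and at 14.3, 10.9, 2.29 and 0.285 FPKM. Os05g0431700, described as like PTR2-B, kept its level through day 2 and then dropped, at 18.5, 18.3, 15.1 and 4.30 FPKM in total RNA and 24.5, 25.6, 20.7 and 3.63 FPKM in mRNA. Os01g0872500 was called lower at -1.46 and -1.64, and Os05g0338900, just inside the filter on low values, at -1.38 and -1.65, a call lost with a pseudocount of 5.

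The remaining peptide transporters were not called on any day. They were Os11g0235200, whose description mentions panicle elongation, Os07g0603800, Os06g0706400, Os03g0235700, Os12g0638200 and Os10g0470700. Os06g0706400, described as a histidine-transporting PTR2-B relative, was lowest on day 2, with 14.7, 12.98, 10.96 and 15.3 FPKM in total RNA and, in mRNA, 32.0, 26.5, 19.4 and 24.1 FPKM.

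None of the 7 OPT family genes among the members was called higher on any drought day, and 1 was called lower on day 2 and 2 on day 3. The 28.6% lower on day 3 is near the 26.0% of all genes, and in 7 genes a share higher of 18.2%, as in all genes, would be about a single gene. The descriptions of the 7 members do not say whether any is a yellow stripe relative. Genes described by the name yellow stripe, which the wording of this class also covers, did not match the member rule. Of 4 genes matched by that name, 2 were higher and 2 lower on day 3, as given further below. Os06g0125500 (chromosome 6, 1371852 to 1375438), described as like oligopeptide transporter 9, stood at 12.4, 7.36, 5.63 and 2.22 FPKM in total RNA and, in mRNA, at 36.4, 18.2, 12.6 and 5.59 FPKM. Os04g0524600 held its level through day 2 and was called lower on day 3, at -1.17 and -1.22. Os02g0695800, described as like oligopeptide transporter 4, was highest on day 2 at 6.28 and 6.78 FPKM and lowest on day 3 at 0.883 and 0.921 FPKM, and neither value reached the rule against watered leaves in both kinds. Os04g0524500, Os04g0390600, Os06g0127700 and Os06g0125400 were not called.

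The summed level of the 63 genes was higher on each further day. It was 1396, 1685, 2603 and 3349.6 FPKM in total RNA and 1827, 2183, 3017 and 4087 FPKM in mRNA, from watered leaves to day 3. The day 3 sum was 2.40-fold the watered sum in total RNA and 2.24-fold in mRNA. Under median-ratio scaling these values were 3.10 and 3.31, under the quantile-normalized values 1.94 and 1.92, and with the 10 most abundant genes left out of the scaling 2.17 and 2.16. The 24 transmembrane-domain and like carriers accounted for 739 FPKM of the watered sum and 2111 FPKM of the day 3 sum in total RNA. Peptide transporters of the PTR kind went from 211 to 773 FPKM on day 2 and 680.4 FPKM on day 3, and the 7 OPT family members from 56.3 to 33.8 FPKM on day 3.

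**Figure D4:**
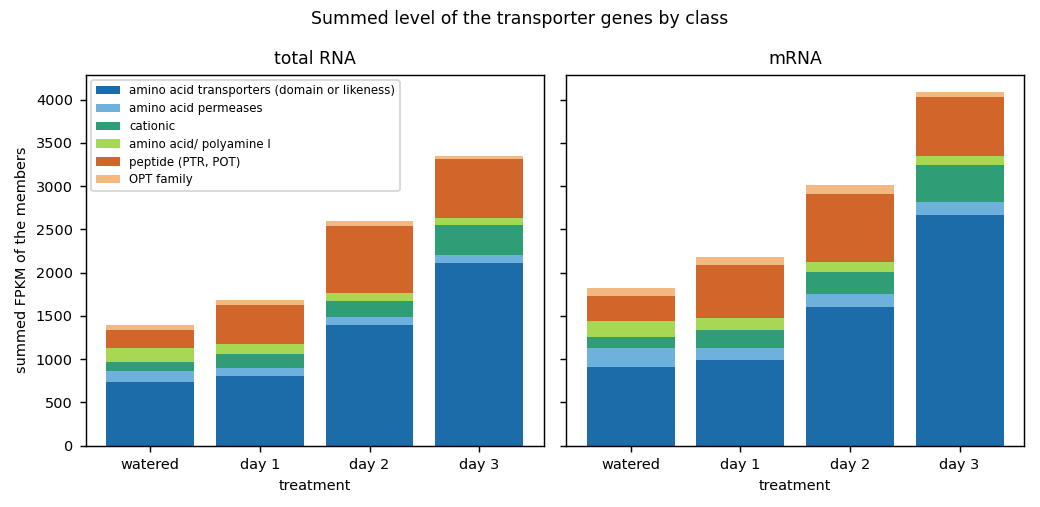
Summed FPKM of the 63 transporter genes in each of the 8 libraries, stacked by class, with total RNA on the left and mRNA on the right. The stacks reach 1396 and 1827 FPKM in watered leaves and 3349.6 and 4087 FPKM on day 3, and most of the added height lies in the largest amino acid carrier class at the bottom.

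Few genes carried most of the signal, and which ones did so differed between watered leaves and day 3. In the watered total RNA library the order was Os06g0633800, Os06g0228500, Os02g0102200, Os01g0945300 and Os07g0134000. On day 3 it was Os06g0633800, Os02g0191300, Os04g0460300, Os12g0623500 and Os02g0580900. Thus 4 of the 5 most abundant members of total RNA were replaced, and the 4 that left the top were all called lower. In mRNA Os06g0633800 and Os12g0623500 were among the 5 most abundant both when watered and on day 3, and 3 of the 5 were replaced. Members of at least 100 FPKM numbered 1 and 3 in the watered libraries (total RNA, mRNA) and 10 in each day 3 library, while members under 1 FPKM went from 4 and 3 to 7 and 6.

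The day of the highest level was the same in both kinds for 53 members. Watered leaves held the highest level of 20 of these, day 1 that of 2, day 2 that of 12 and day 3 that of 19. In both kinds, 14 genes were higher at every step from watered leaves to day 3 and 15 were lower at every step. Highest days and steady courses were not counted over all genes tested, so these counts describe the members only. Between consecutive drought days, 7 members were called higher on day 2 than on day 1 (11.1%, against 4.29% of all genes tested) and 5 lower (7.94%, against 5.01%). On day 3 against day 2, 7 were higher (11.1%, against 7.36%) and 12 lower (19.0%, against 15.2%). The steps share the day 2 libraries.

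Members were called in either step or in both. Os04g0460300 gained 2.25 and 2.09 (log2) from day 1 to day 2 and was not called from day 2 to day 3. Os02g0191300 was called in both steps, with 2.03 and 1.93 and then 1.67 and 1.66. Os01g0597600, Os01g0607200, Os01g0878700 and Os08g0127100 were called higher in the second step and not in the first. Among the 63 members, Os01g0945300 had the largest loss of the second step, at -3.17 and -3.16, and Os04g0562100 that of the first, at -1.90 and -2.13.

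Some members lie close together on a chromosome of the IRGSP-1.0 build, which the submitters' processing notes name. Within 50 kb of each other lay 8 pairs, with 16 genes. Os06g0125400 and Os06g0125500, both described as like oligopeptide transporter 9, are 2868 bases apart with no other listed gene between them. On day 3 the first stood at 0.12 and 0.03 (log2) and the second at -2.06 and -2.50. Os06g0705600 and Os06g0706400, 21570 bases apart, stood at -3.26 and -3.57 against 0.05 and -0.39.

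A pair 38852 bases apart on chromosome 1 went opposite ways. On day 3 the auxin transporter-like Os01g0856500 was called lower and Os01g0857400 higher, the second at 1.27 and 1.16. Os01g0878400 and Os01g0878700, 12714 bases apart, were alike on day 1 (1.09 and 1.01 against 1.21 and 1.06) and apart on day 3 (0.87 and 0.68 against 3.57 and 3.30). The other 4 pairs differed by less on day 3. The sources used here do not state how reads were shared between similar neighbours, so the levels of such copies are uncertain.

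**Figure D5:**
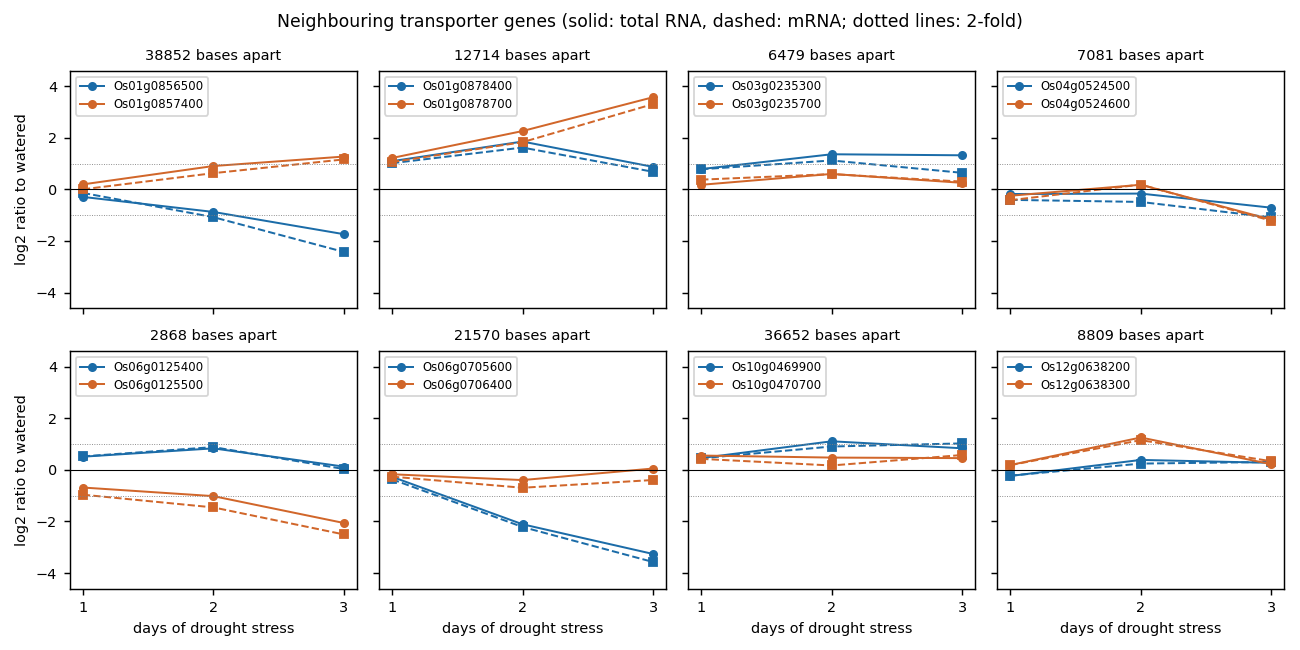
Log2 ratio to watered leaves on each drought day for the 8 pairs of transporter genes within 50 kb of each other, in total RNA (solid) and mRNA (dashed). The first pair parts to -1.74 and -2.43 against 1.27 and 1.16 on day 3, and the pair 2868 bases apart to 0.12 and 0.03 against -2.06 and -2.50.

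Several annotated transcripts were listed for 26 of the 63 genes. In 8 of them some transcripts carry a description without the transporter words, and in 3, Os02g0580900, Os03g0576900 and Os07g0603800, such transcripts held most of the FPKM in every library. For Os03g0576900 the matching transcripts held at most 1.47%. The matching transcript of Os04g0565500 held 93.0% of the gene in watered total RNA and at most 8.71% in any other library. For Os02g0670900, described as like an amino acid transport protein, the transcript share turned over between days 2 and 3, a gene chosen after its values were seen. The transcript of 1697 bases, Os02t0670900-05, stood at 29.6, 23.4, 60.4 and 0.180 FPKM in total RNA and, in mRNA, at 33.3, 29.5, 61.5 and 0.102 FPKM. The transcript of 2055 bases, Os02t0670900-02, stood at 3.99, 3.98, 9.52 and 158 FPKM and at 3.15, 2.84, 8.54 and 204 FPKM. Both kinds thus gave the longer transcript 13.6% and 12.2% of the gene on day 2, and 99.9% in each on day 3. The gene as a whole was called higher on day 3, at 2.203 and 2.45 (log2).

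In Os01g0607200 the day 3 gain lay in the transcript Os01t0607200-02, which went from 0.926 to 11.96 FPKM in total RNA and from 3.16 to 20.5 FPKM in mRNA. The other transcript stayed between 3.18 and 6.72 FPKM in all libraries. For Os03g0719900 the kinds did not give the same transcripts. Its transcript Os03t0719900-01 held 58.8% of the gene in total RNA on day 3 and was listed at 0 in mRNA, so only the gene sum is used above. Transcript shares are estimates of the authors' pipeline from overlapping reads.

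Library kinds differed in level for a few members. In each of the 4 treatments, 7 genes were at least 2-fold lower in total RNA than in mRNA (11.1%, against 4.05% of all genes tested) and 0 were 2-fold higher (0.286% of all genes). The 7 were Os03g0235300, Os04g0390600, Os06g0125400, Os06g0125500, Os08g0127100, Os10g0470700 and Os12g0580400. The tables were scaled separately, so this sets levels side by side and no more. The share of the summed FPKM of a library that the 63 genes held was 0.185% in watered total RNA and 0.255% in watered mRNA.

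Other genes around organic nitrogen, grouped by words in their descriptions, were set beside the transporters under the same rule. By that rule 6.98% of all genes were higher and 2.48% lower on day 1, against 18.2% and 26.0% on day 3. Of 66 tested genes matched by words for aminotransferases, glutamine and asparagine enzymes and amino acid breakdown, 19 had higher calls and 0 lower calls on day 1, against 26 and 19 on day 3. These words also take in enzymes of synthesis, among them 3 glucosamine-fructose-6-phosphate aminotransferases, all called higher on day 3. The lysine-degrading Os02g0783625 went from 3.93 to 1597 FPKM in total RNA between watered leaves and day 3, while the chloroplast glutamine synthetase Os04g0659100, which fixes ammonium into glutamine, was at 618 and 12.7 FPKM. Of 87 tested genes matched by protease words, 14 had higher and 2 lower calls on day 1, against 24 and 26 on day 3. The 87 include 4 protease inhibitors, of which 1 is among the 14 and 3 among the 24. On day 3 the lower counts of the aminotransferase and protease lists are close to the share of all genes. The cysteine proteinase Os08g0556900, described as like vignain, went from 11.01 to 882 FPKM in total RNA. Os01g0332800, described as like a serine carboxypeptidase, went from 91.4 to 0.359 FPKM. The median log2 ratio of the protease list on day 3 was -0.26 in total RNA and -0.40 in mRNA. Genes named here and in the next paragraph lie outside the naming rule and do not stand for their lists.

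Nitrate and ammonium carriers bring inorganic nitrogen into cells. Of 8 tested nitrate transporters, which are relatives of the peptide transporters in part, 0 were called higher on any day and 5 were called lower on day 3, with a median of -1.48 and -1.57 (log2). Os01g0547600, described as like a high affinity nitrate transporter, went from 29.9 to 0.0326 FPKM in total RNA. Of 6 ammonium transporters, 2 were higher and 3 lower on day 3. Of 16 autophagy genes, whose products deliver cell contents to the vacuole for breakdown, 3 were higher and 1 lower on day 3, near the share of all genes for the higher side, and Os01g0614900, described as like autophagy-related 7, was at 3.17 and 3.15. Of 4 genes matched as yellow stripe relatives, 2 were higher and 2 lower on day 3, but one of the lower ones, Os08g0157500, is a methyltransferase taken in by the letters of its description. Of 2 tested MtN21 relatives, 0 were called.

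Expression of leaf genes in watered libraries matched the label of the tissue. Rubisco small subunit and chlorophyll a/b-binding genes, 18 in both tables, summed to 49398 FPKM in watered total RNA and 41208 FPKM in watered mRNA, and to 889.9 and 855 FPKM on day 3. None of the 18 was at 0 in both kinds when watered, and 2 were on day 3. Seed storage genes (9) summed to between 29.3 and 126 FPKM, highest on day 3 in both kinds. Genes with pollen or anther in their description (39) summed to between 858 and 2759.9 FPKM, highest on day 2 in both kinds, and the 1 gene described as root-specific was under 1 FPKM throughout. The part of these cell and tissue markers in the transporter values was not tested.

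Of the 48 matching genes that were left out, 9 were listed in 1 table only and 39 were below 1 FPKM on average in at least 1 table. None of the 39 reached 5 FPKM in any library. The members nearest above the limit were Os05g0338900 and Os05g0586500. The nearest below it were Os05g0237800, described as like a histidine amino acid transporter, and Os01g0902700, described as like PTR2. The first was listed at 0 when watered in both kinds and stood at 2.99 and 2.70 FPKM on day 2. The second stood at 2.07 and 1.59 FPKM when watered and was listed at 0 on day 3 in both kinds. Among the 63 members, 3 were under 1 FPKM in both watered libraries and so passed the filter through their drought levels alone, and 6 were under 1 FPKM in both day 3 libraries and passed through the others.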

How the data were processed

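Leaf RNA went into stranded libraries of total RNA or mRNA, as the labels' protocols state. Per the submitters' processing notes, the build was IRGSP-1.0 and the tools were StringTie 1.3.3b, HISAT2 2.0.5, Bowtie2 2.2.6, Trimmomatic 0.32 and FastQC 0.10.0. The roles of these tools, the strand setting and the annotation release are not given in the sources used here. Per the file headers, the authors deposited FPKM for each transcript in each library, in 1 table per kind. A deposited log2 column beside each FPKM column served as an alternative. Judged by its values it holds log2(FPKM + 1), quantile-normalized within the table: once sorted, the 4 libraries had equal values, to within 0.01, at 100% of ranks in the total RNA table and 98.9% in the mRNA table.

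FPKM was summed over the transcripts of a gene. Ratios used a pseudocount of 1 FPKM, and genes were kept whose mean reached 1 FPKM in the total RNA table and in the mRNA table. Read depth is not in the files. Multiples of the most common low value of FPKM times length took in 13.0% to 17.4% of low values (within 0.02), so whole reads were not recovered and no counting interval is given. With 1 library per group no test was run, and the kinds were not treated as replicates.

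The members, classes and lists were chosen with earlier results of these data known, and the class wording was adjusted to the descriptions after values were seen. The naming rule takes the 10 highest and 10 lowest called members on day 3, 5 on each side on days 1 and 2, the 8 most abundant when watered, the 3 clearest turning courses each way, the 3 most abundant uncalled, any member called both ways or with kinds of opposite sign past the rule (none was), and the 2 nearest the filter on each side. Python 3.11.15, pandas 2.3.3, numpy 2.4.6 and matplotlib 3.10.9 were used.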

Additional observations from a re-analysis of the deposited data

How the results depend on the processing

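Each count of called transporters was recomputed under 10 alternatives, namely pseudocounts of 0.1 and 5, no filter, a mean of at least 5 FPKM, 3 other scalings, each library kind alone, and the most abundant transcript of each gene. The count higher on day 1 was 10 and became 5 with a pseudocount of 5, and the count lower on day 1 was 3 and became 5 both with median-ratio scaling and with quantile-normalized values. All other counts stayed within 1.5 times. The median ratio changed sign on day 1 in total RNA without a filter (-0.038), with median-ratio scaling (-0.17) and with quantile-normalized values (-0.13), and in mRNA with these scalings (-0.092 and -0.064). On day 3 it did so without a filter (-0.040 in total RNA and -0.041 in mRNA), and in mRNA also with the 10 most abundant genes left out of the scaling (-0.018) and with the most abundant transcript only (-0.063). The cause was not tested. Among 62 calls of named members, none changed direction, 13 were lost with a pseudocount of 5, and 3, 4 and 2 under median-ratio, quantile and top-gene scaling. No paired analysis was possible because each treatment and kind holds 1 library, and the labels do not say whether the kinds of a treatment share plants or RNA. Unknown depth limits the genes under 1 FPKM most.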
